A study of Mus musculus with 4 samples.

Results

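The Serpina3 cluster is a row of closely related serine protease inhibitor genes on mouse chromosome 12, and 7 of its genes, Serpina3c, Serpina3f, Serpina3g, Serpina3i, Serpina3k, Serpina3m and Serpina3n, were described in liver. They were taken by gene symbol from the 24346 genes listed for each library. The genes were chosen by symbol with their FPKM in these same libraries already known. Their differences between the groups are therefore given as a description, and no p-value of a member is printed. Where members are counted as past a test threshold, nothing is read from the count. RNA sequencing was performed on liver of C57BL/6 mice that had eaten the NASH diet (rich in fat, cholesterol and sucrose, with bile salt) for 3 weeks, a diet used to induce steatohepatitis. The control group (n = 2) received this diet alone, and the 7KC group (n = 2) received it with added 7-ketocholesterol (7KC), which forms when cholesterol is oxidized. The mice were males of 8 weeks of age at the start of the diet. They were wild type and had not received the skin cream that the study applied later. No group on a normal diet was analysed here, so all values are from livers exposed to the NASH diet. The sample labels do not say whether each library came from a separate mouse, so the p-values below measure only the spread between these libraries, which may be technical.

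Serpins inhibit proteases by a suicide mechanism. A flexible stretch near the C-terminus, the reactive center loop, is offered as bait. The protease cleaves it, the loop snaps into the body of the serpin from a conserved hinge, and the protease is trapped and distorted. The letters of the loop therefore largely set which protease is caught. Humans carry a single SERPINA3 gene, which encodes alpha-1-antichymotrypsin, an acute phase protein of the liver that inhibits cathepsin G. In the mouse this gene has multiplied into the Serpina3 cluster. Several copies, such as Serpina3k and Serpina3m, encode abundant plasma proteins secreted by hepatocytes. Serpina3n is an acute phase inhibitor known to act on granzyme B and neutrophil elastase. Serpina3g, also called Spi2A, is an intracellular inhibitor of lysosomal cathepsins known from leukocytes, where interferon-gamma and NF-kB switch it on.

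On GRCm38 (the build called mm10 by the authors, with the GENCODE M21 annotation) the Serpina3 genes lay at chr12:104112724-104414329, a span of 301.6 kb with 14 genes, of which 10 were annotated as coding and 4 as pseudogenes. Of these 14, 11 were listed in the deposited values. Serpina3c was at chr12:104146382-104153870 on the minus strand. The other 6 members were on the plus strand. Serpina3f was at chr12:104214544-104221129, Serpina3g at chr12:104236245-104241939, Serpina3i at chr12:104263122-104269372 and Serpina3n at chr12:104406729-104414329. Serpina3k was at chr12:104338486-104346144. The GENCODE model of Serpina3m, chr12:104338486-104394257, began at the same base because 1 of its 2 transcripts used the first exon of Serpina3k. The red genes in the map of the cluster, Serpina3f, Serpina3g and Serpina3i, were neighbours with only the pseudogene Serpina3h between them.

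**Figure D1:**
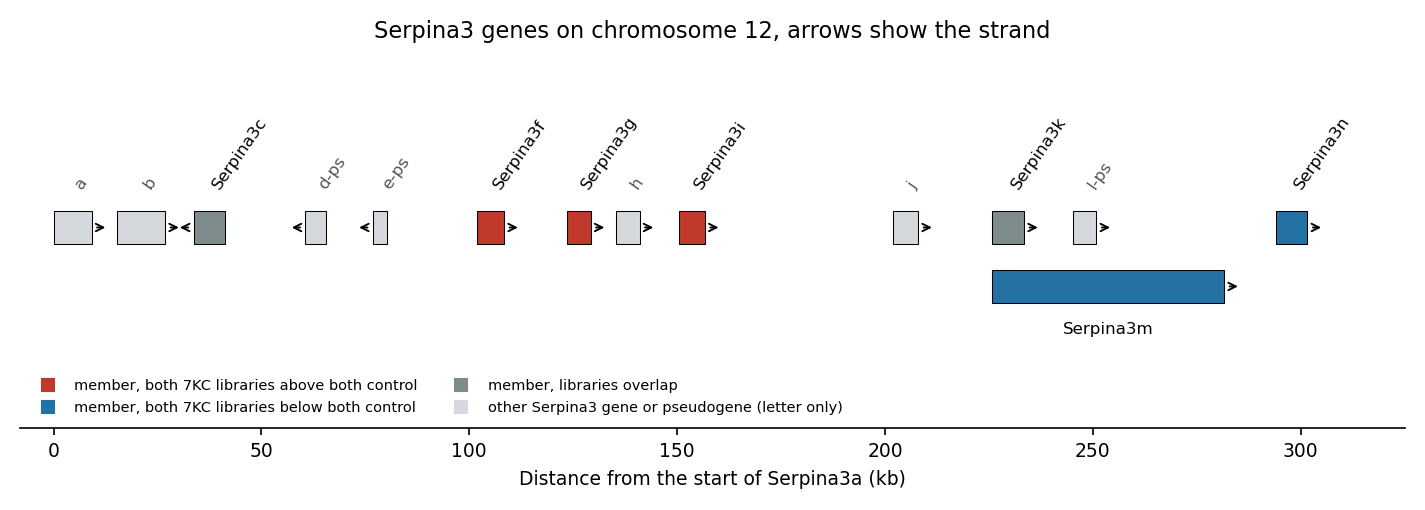
Map of the 14 Serpina3 genes, with the distance in kb from the start of Serpina3a on the horizontal axis and arrows for the strand. Members are colored by how their 2 7KC libraries stood against their 2 control libraries (red above, blue below, dark gray overlapping), and pale boxes are the other Serpina3 genes and pseudogenes, marked by their letter. Serpina3f, Serpina3g and Serpina3i stand together and start 101.8 to 150.4 kb from the start of Serpina3a.

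Because the loop sets the target, the coding sequence of the loop is shown for each member, from the reference transcripts of GENCODE M21 on GRCm38, read along the gene's own strand. The capitals mark the 24 bases of the hinge, and the lower case letters are the loop that follows it, up to the conserved phenylalanine motif that ends it. The stretches were at chr12:104147322-104147387 in Serpina3c, chr12:104220245-104220322 in Serpina3f, chr12:104241072-104241146 in Serpina3g, chr12:104268480-104268554 in Serpina3i, chr12:104345269-104345337 in Serpina3k, chr12:104393769-104393843 in Serpina3m and chr12:104413448-104413522 in Serpina3n. In every member the whole stretch lay in the last exon.
Serpina3c: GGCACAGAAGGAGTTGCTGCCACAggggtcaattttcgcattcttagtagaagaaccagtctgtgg
Serpina3f: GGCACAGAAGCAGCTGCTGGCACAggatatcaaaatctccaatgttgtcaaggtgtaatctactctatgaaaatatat
Serpina3g: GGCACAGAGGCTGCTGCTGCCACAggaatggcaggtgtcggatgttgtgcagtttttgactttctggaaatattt
Serpina3i: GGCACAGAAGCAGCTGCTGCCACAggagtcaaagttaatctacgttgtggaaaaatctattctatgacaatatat
Serpina3k: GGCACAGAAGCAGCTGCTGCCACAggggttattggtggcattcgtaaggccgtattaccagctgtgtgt
Serpina3m: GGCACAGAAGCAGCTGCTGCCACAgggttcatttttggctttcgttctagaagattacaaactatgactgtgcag
Serpina3n: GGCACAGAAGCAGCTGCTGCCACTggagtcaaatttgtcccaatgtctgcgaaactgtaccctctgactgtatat

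The hinge was nearly the same in all members, with 0 to 4 differences among its 24 bases over the 21 pairs of members and with no difference in 3 pairs. The loop itself was not. The identity of the loop bases had a median of 52.4% over the 21 pairs and ranged from 26.2% to 69.0%. The rest of the aligned coding sequence had a median identity of 85.9% and ranged from 82.4% to 93.0%. The loop was the less alike region in 21 of 21 pairs. By aligned coding sequence the members formed pairs and groups. The reference transcript of Serpina3g had a coding sequence of only 744 bases, so its pairs were aligned over a shorter stretch. Serpina3k and Serpina3m shared 91.7% of aligned bases, Serpina3f and Serpina3i 91.2%, Serpina3c and Serpina3m 89.5%, and Serpina3f and Serpina3g 86.8%. The lowest identities were 80.2% for Serpina3g and Serpina3k, over 642 aligned bases, and 80.4% for Serpina3f and Serpina3k, over 1218.

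This likeness bears on the measurements, because the reads were 75 bases long and single-end. Among all windows of 75 bases in the reference transcript of Serpina3f, 5.6% occurred letter for letter in another annotated gene, and for Serpina3g, Serpina3i, Serpina3k and Serpina3m it was 8.9%, 6.9%, 7.4% and 9.7%. For Serpina3c and Serpina3n it was 0.3% and 1.5%. All exact matches were to other genes of the cluster. When 2 mismatches were allowed, between 8.3% (Serpina3n) and 29.2% (Serpina3i and Serpina3m) of the windows matched another gene of the cluster. Most matches fell within 2 groups, Serpina3f, Serpina3g and Serpina3i with each other and with the pseudogenes Serpina3e-ps and Serpina3h, and Serpina3m with Serpina3k. Serpina3e-ps, which matched 14.1% of the windows of Serpina3i, was not listed in the deposited values. The groups were not closed, since 3.9% of the windows of Serpina3g and 2.3% of those of Serpina3f matched the more abundant Serpina3n, and 6.6% of those of Serpina3m matched Serpina3c. The windows of Serpina3m matched Serpina3k in 24.2% of cases and those of Serpina3k matched Serpina3m in 19.4%. Serpina3k was far more abundant than Serpina3m in every library, so a small share of Serpina3k reads placed on Serpina3m would weigh more there than the reverse. The settings for reads that map to several places were not given in the sources used here, and exchange of reads between the members was not tested.

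**Figure D2:**
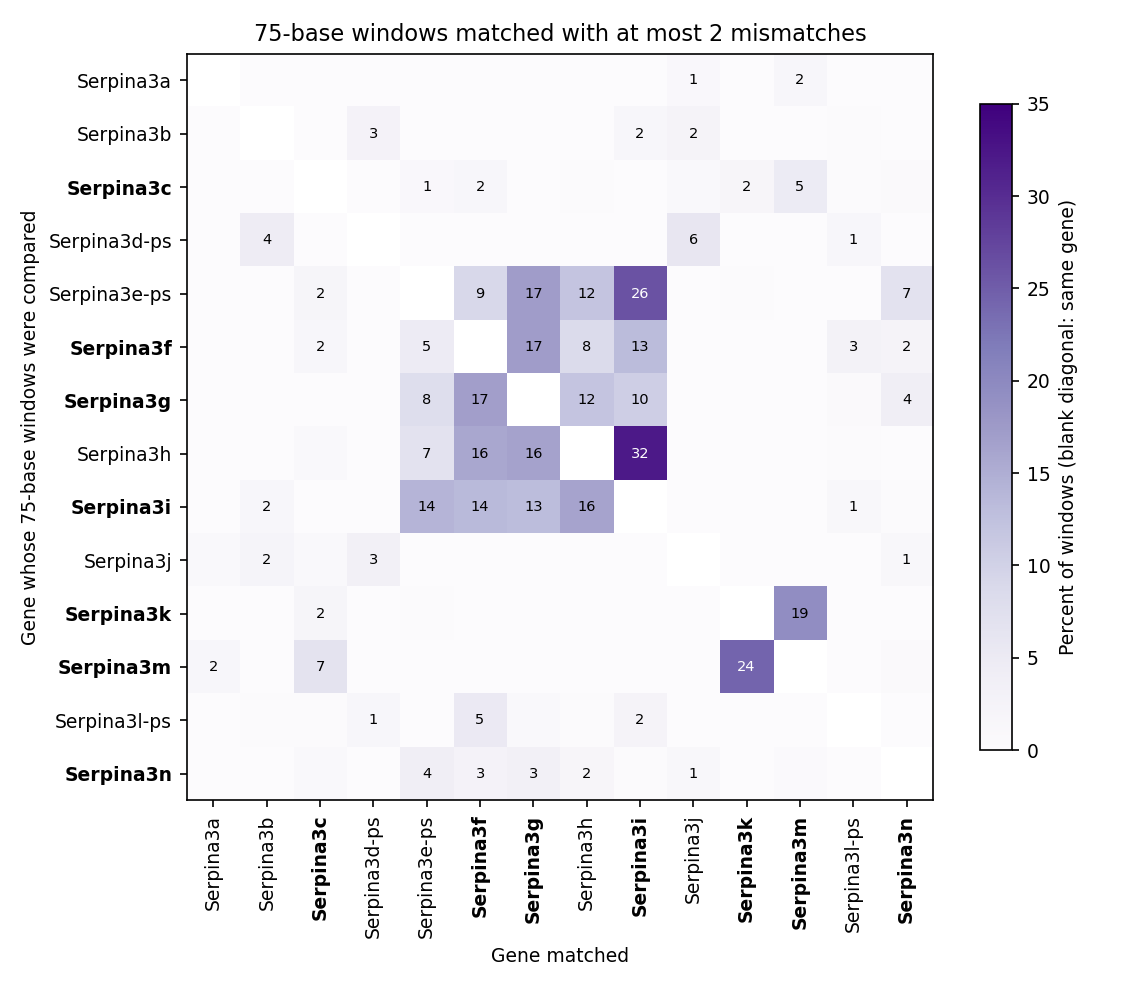
Percent of the 75-base windows of each Serpina3 gene (rows) that match each other gene of the cluster (columns) with at most 2 mismatches, with members in bold and shares under 1% left without a number. The dark blocks are Serpina3e-ps, Serpina3f, Serpina3g, Serpina3h and Serpina3i among themselves, and Serpina3k with Serpina3m.

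The deposited values are FPKM, the fragments mapped to a gene per kilobase of its exons and relative to all mapped fragments of the library, so levels can be compared between genes. The depth was estimated from the steps between low values at 13600000 to 16960000 mapped reads per library. At this depth about 221 to 1722 reads stood behind each value of Serpina3f and Serpina3g, at least 4556 behind each value of Serpina3m, Serpina3n and Serpina3k, and only 5 to 20 behind each value of Serpina3c and Serpina3i. As a check of the labelled tissue, all 11 listed hepatocyte markers were present, and their summed level was 65805 to 77976 FPKM in the controls against 42291 to 56801 FPKM with 7KC.

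The members spanned a wide range of levels in the liver. Serpina3k was the ninth most abundant of all listed genes by its mean in the control group, with 8315 ± 2604 FPKM (SD, n = 2). Serpina3n followed with 475 ± 12.3 FPKM and Serpina3m with 360 ± 11.6 FPKM. Serpina3g had 18.4 ± 2.32 FPKM and Serpina3f 8.56 ± 3.11 FPKM. Serpina3c and Serpina3i were lowest, with 0.419 ± 0.371 and 0.193 ± 0.0165 FPKM. In the 7KC group the order from Serpina3k to Serpina3f was as in the control group. In both groups each of the first 5 members had both libraries above both libraries of the next, except that Serpina3c and Serpina3i, the last 2, overlapped with each other.

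**Figure D3:**
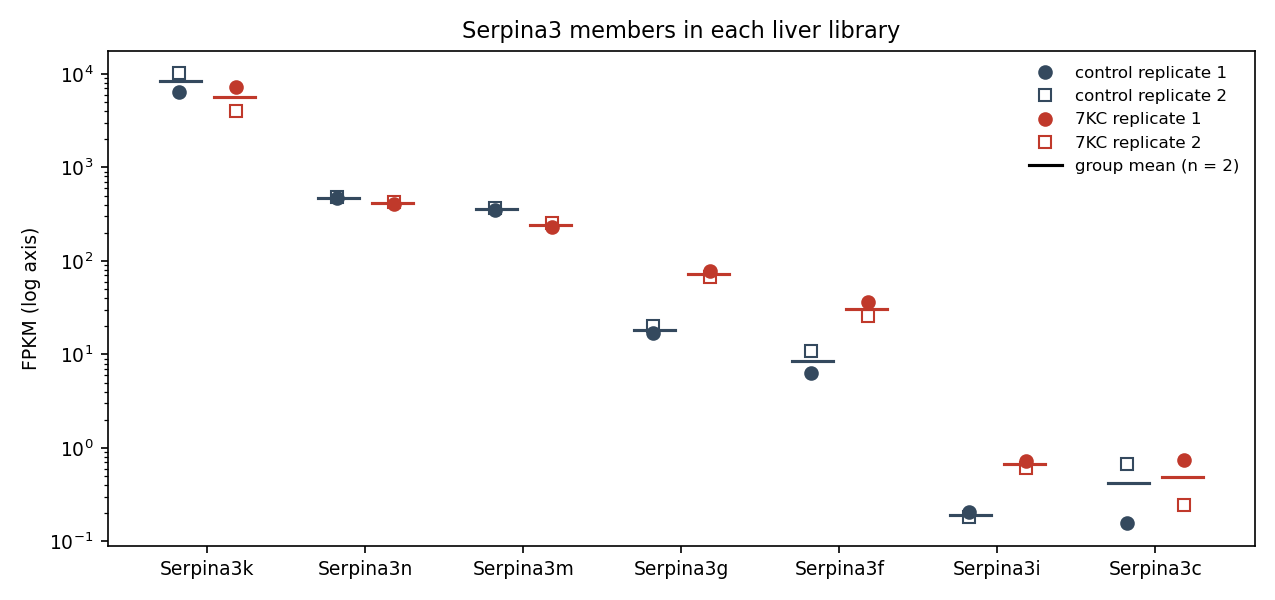
FPKM (log axis) of the 7 Serpina3 members in each liver library, with control in dark blue and 7KC in red, filled circles for replicate 1, open squares for replicate 2 and a bar for the mean of each group (n = 2). Serpina3g, Serpina3f and Serpina3i have both red points above both blue points, Serpina3m and Serpina3n have them below, and Serpina3k and Serpina3c overlap.

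Between the diets the members divided in 3 ways. Both 7KC libraries were above both control libraries for 3 of the 7 members (Serpina3f, Serpina3g and Serpina3i) and below them for 2 (Serpina3m and Serpina3n), and the libraries overlapped for 2 (Serpina3k and Serpina3c). Of the 12299 genes tested, those whose mean reached 0.5 FPKM, 25.1% had both 7KC libraries above and 27.4% had both below. The filter left 5 members, of which 2 were above, 2 below and 1 overlapping. In the limma test over the 12299 genes, which compared log2(FPKM + 0.5) with Benjamini-Hochberg adjustment, 1 member (Serpina3g) passed an adjusted p of 0.05 as higher in the 7KC group, where 0.480% of all genes tested did so, and 0 members passed as lower, where 0.0244% did so. Since the members were chosen with these differences known, nothing is read from these counts. Under the same test 0 members passed without either 7KC library, and 2 (Serpina3f and Serpina3g) passed without control replicate 1.

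Serpina3g, the leukocyte cathepsin inhibitor, had the largest difference of the members. Its level was 16.8 and 20.0 FPKM in control replicates 1 and 2 and 79.0 and 67.5 FPKM in 7KC replicates 1 and 2. Both 7KC libraries were far above both control libraries, and the libraries nearest to each other across the groups still differed 3.37-fold. The group means were 18.4 ± 2.32 and 73.2 ± 8.11 FPKM, a ratio of 3.98. On the log2(FPKM + 0.5) scale the difference was 1.96 with a standard error of 0.15, which ranked 41 among the 12299 genes. By its mean Serpina3g stood at rank 3160 of all listed genes in the control group and at rank 1012 in the 7KC group.

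Serpina3f, the closest relative of Serpina3g by shared windows, differed in the same direction with more scatter. It was at 6.36 and 10.8 FPKM in control replicates 1 and 2 and at 36.3 and 25.7 FPKM in the 7KC replicates. The groups did not overlap, and the nearest libraries differed 2.39-fold. The means were 8.56 ± 3.11 and 31.0 ± 7.47 FPKM, a ratio of 3.62 and a log2 difference of 1.82 with a standard error of 0.29. The control libraries differed from each other by 0.72 on the log2 scale, more than for 95.1% of the genes tested, against 0.25 for Serpina3g. The ratio of Serpina3g to Serpina3f was 2.64 and 1.86 in the controls against 2.18 and 2.63 in the 7KC libraries, and these overlapped.

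Serpina3i was close to the limit of detection. It was at 0.205 and 0.181 FPKM in control replicates 1 and 2 and at 0.732 and 0.618 FPKM in the 7KC replicates, with means of 0.193 ± 0.0165 and 0.675 ± 0.0808 FPKM and a ratio of 3.49. Both 7KC libraries were above both control libraries. The control values rested on about 7 and 5 reads, with exact 95% Poisson intervals of 2.8 to 14.4 and 1.6 to 11.7, and the 7KC values on about 20 and 17, with intervals of 12.2 to 30.9 and 9.9 to 27.2. These intervals cover counting error only. The interval of control replicate 1 overlapped those of both 7KC libraries, and that of control replicate 2 overlapped that of 7KC replicate 2. Of the windows of Serpina3i, 29.2% matched another cluster gene with at most 2 mismatches. Serpina3f matched 13.5% of them and Serpina3g 13.1%, and about 221 to 1722 reads stood behind each value of these more abundant genes. A small share of those reads placed on Serpina3i could equal its 5 to 20 reads, and this was not tested. Serpina3i was below the filter and was not tested.

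Since these 3 genes can exchange reads, their FPKM were also added together. The sum was 23.3 and 31.0 FPKM in the controls against 116 and 93.8 FPKM in the 7KC libraries, a ratio of means of 3.86. With the pseudogene Serpina3h, which was at 0.158 and 0.391 FPKM in the controls against 0.631 and 0.548 FPKM in the 7KC libraries, the ratio was 3.84. An exchange of reads among these genes would largely cancel in the sums, apart from their differences in length. An exchange with Serpina3n or with the unlisted pseudogene Serpina3e-ps would not.

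Serpina3k, the most abundant member, did not separate the groups. Its level was 6474 and 10157 FPKM in the control replicates and 7236.5 and 4024 FPKM in the 7KC replicates. The highest value was a control library and the lowest a 7KC library, but 7KC replicate 1 was above control replicate 1. The means were 8315 ± 2604 and 5630 ± 2271 FPKM, a ratio of 0.677, and the log2 difference of -0.59 had a standard error of 0.39. Replicates of Serpina3k were far apart for so abundant a gene. They differed by 0.65 on the log2 scale in the control group and by 0.85 in the 7KC group, more than for 93.9% and 98.1% of the genes tested, where the median gene differed by 0.16 and 0.17.

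Serpina3m, the closest relative of Serpina3k, had almost the same ratio of means but little scatter. It was at 351 and 368 FPKM in the control replicates and at 229 and 253 FPKM in the 7KC replicates. Both 7KC libraries were below both control libraries. The means were 360 ± 11.6 and 241 ± 16.3 FPKM, a ratio of 0.670 and a log2 difference of -0.58 with a standard error of 0.13. The ratio of Serpina3k to Serpina3m was 18.4 and 27.6 in the controls against 31.5 and 15.9 in the 7KC libraries. In the 7KC group replicate 1 had more Serpina3k and less Serpina3m than replicate 2, whereas in the control group replicate 2 had more of both.

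Serpina3n, the acute phase member, had the smallest difference among those whose groups did not overlap. It was at 466 and 484 FPKM in the control replicates and at 405 and 426 FPKM in the 7KC replicates, both below both control libraries. The means were 475 ± 12.3 and 416 ± 15.0 FPKM, a ratio of 0.875 and a log2 difference of -0.19 with a standard error of 0.13. This direction depended on the scaling. After the FPKM of each library were scaled to add up to an equal total, the median log2 difference of all genes tested was 0.17 in place of -0.03, that of Serpina3n was 0.01 and that of Serpina3m -0.37. The ratio of Serpina3n to Serpina3m does not depend on scaling. It was 1.33 and 1.32 in the controls against 1.77 and 1.69 in the 7KC libraries, which did not overlap.

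Serpina3c, a relative of Serpina3m by coding sequence and the only member on the minus strand, was at 0.157 and 0.681 FPKM in the control replicates and at 0.736 and 0.244 FPKM in the 7KC replicates. Each group had a low and a high library, and the groups overlapped. The means were 0.419 ± 0.371 and 0.490 ± 0.348 FPKM. About 5 and 19 reads stood behind the control values and about 20 and 7 behind the 7KC values. Control replicates 1 and 2 differed 4.34-fold. No difference between the groups could be seen at this depth.

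The share of Serpina3f and Serpina3g in the summed level of the cluster separated the groups, and the share of Serpina3k did not. The 7 members together were at 7315 and 11040 FPKM in the controls against 7988 and 4797 FPKM with 7KC, which overlapped, and made up 0.861% to 1.64% of all FPKM of a library. Serpina3k supplied 88.5% and 92.0% of this sum in the controls against 90.6% and 83.9% in the 7KC libraries. Without Serpina3k the sum was 841 and 883 FPKM in the controls against 751 and 773 FPKM with 7KC, which did not overlap. The FPKM of all genes also added up to less with 7KC, 619828 and 557138 against 685028 and 671235 in the controls. This sum was not compared at an equal total, where Serpina3n, its largest part, had a log2 difference of 0.01. Serpina3f and Serpina3g made up 0.316% and 0.279% of the 7 in the controls against 1.44% and 1.94% in the 7KC libraries. The ratio of Serpina3n to Serpina3g was 27.8 and 24.1 in the controls against 5.13 and 6.32 in the 7KC libraries.

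The 4 other listed Serpina3 genes were almost silent in these livers. Serpina3h is given above. Serpina3b was listed at 0 and 0.116 FPKM in the controls against 0.234 and 0.387 FPKM in the 7KC libraries. Serpina3a was listed at 0 in all libraries but control replicate 2, where it had 0.0726 FPKM, and Serpina3j at 0 in all but 7KC replicate 2, where it had 0.0403 FPKM.

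The other clade A serpins, which include the alpha-1-antitrypsin genes and lie mostly beside the Serpina3 cluster, were compared from a list of 15 symbols, of which 12 passed the filter. Their median log2 difference was -0.23, beside -0.03 for all genes tested. Both 7KC libraries were above for 1, below for 5 and overlapping for 6, and 0 passed the limma threshold in either direction. The alpha-1-antitrypsin genes Serpina1a, Serpina1b, Serpina1c and Serpina1d had both 7KC libraries below both control libraries, with log2 differences of -0.41, -0.52, -0.35 and -0.64. With the libraries scaled to an equal total, the median of the 12 was -0.03, beside 0.17 for all genes, with the same counts above and below. Serpina1e, of the same family, was at 1062 and 9390 FPKM in the controls against 1680 and 474 FPKM with 7KC. Control replicates 1 and 2 differed 8.84-fold for this gene, and the replicate with the higher level was the one with more Serpina3k. Serpina11 was below (log2 -0.39) and Serpina10, the protein Z-dependent protease inhibitor, was above (0.20). Serpina6, the corticosteroid-binding globulin, Serpina7, the thyroxine-binding globulin, Serpina9, Serpina12 and Serpina4-ps1 overlapped.

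Proteases known as targets of Serpina3 proteins or of related serpins were compared next. Of 13 listed, 8 passed the filter. Their median log2 difference was 0.30, with 4 above, 2 below and 2 overlapping, and 0 passed the threshold. Ctss, encoding the lysosomal cathepsin S, was at 162 and 135 FPKM in the controls against 293 and 459 FPKM with 7KC (log2 difference 1.31, adjusted p = 0.0848, limma). Ctsl, encoding cathepsin L, was at 428 and 562 FPKM and at 340 and 303 FPKM (log2 difference -0.61, adjusted p = 0.190, limma). Gzmb, encoding granzyme B of cytotoxic lymphocytes, was at 0.964 and 0.538 FPKM and at 3.62 and 1.68 FPKM (log2 difference 1.28, adjusted p = 0.172, limma). The neutrophil proteases Elane and Ctsg, known targets of this family, were below the filter, at no more than 0.713 and 0.294 FPKM in any library.

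Serpina3g responds to interferon-gamma and NF-kB in leukocytes, so 17 genes of that signaling, all of which passed the filter, were set beside it. They had a median log2 difference of 1.01, with both 7KC libraries above for 16, below for 0 and overlapping for 1. Of the 17, 3 rose in the limma test and 0 fell. Irf8, a transcription factor of myeloid cells, was at 10.6 and 8.16 FPKM in the controls against 26.8 and 26.2 FPKM with 7KC (log2 difference 1.46, adjusted p = 0.0369, limma). Nfkbie, an inhibitor and target of NF-kB, was at 3.15 and 3.20 FPKM and at 8.44 and 9.61 FPKM (log2 difference 1.37, adjusted p = 0.0313, limma). None of the 17 passed without a filter, with control replicate 2 left out or with either 7KC library left out, whereas 8 passed without control replicate 1.

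The acute phase response, which in the liver runs from IL-6 through Stat3, is the setting in which Serpina3n is best known. Of 11 tested genes of IL-6 family signaling, 3 were above, 1 below and 7 overlapping, with a median log2 difference of -0.02 and with 0 past the threshold. With libraries scaled to an equal total the median was 0.18 and 5 were above and 0 below. Stat3 itself was at 40.5 and 35.2 FPKM in the controls against 41.3 and 39.2 FPKM in the 7KC libraries. The genes of this list with the smallest p were Jak2 (log2 difference 0.57, adjusted p = 0.132, limma), Tyk2 (0.35, adjusted p = 0.270), both kinases, and the receptor gene Il6ra (-0.55, adjusted p = 0.288). Of 24 tested acute phase genes that are not serpins, 8 were above, 7 below and 9 overlapping, with a median of 0.12 and with 0 past the threshold, and at an equal total 12 were above and 3 below with a median of 0.32, and 3 passed the threshold as higher. Il1rn, the interleukin-1 receptor antagonist, had a log2 difference of 1.03 (adjusted p = 0.0605, limma), Saa3, a serum amyloid A gene, 1.58 (adjusted p = 0.108), and Steap4, a metalloreductase gene, 0.48 (adjusted p = 0.129). Of 13 genes of the glucocorticoid and growth hormone axis, which also acts on hepatic serpins, 1 was above, 4 were below and 8 overlapped, with a median of -0.19, which was 0.02 at an equal total, and with 0 past the threshold. Fkbp5 and Tsc22d3, both glucocorticoid targets, had log2 differences of -0.80 and -0.68 (adjusted p = 0.134 and 0.330, limma), and the growth hormone receptor gene Ghr -0.28 (adjusted p = 0.373).

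**Figure D4:**
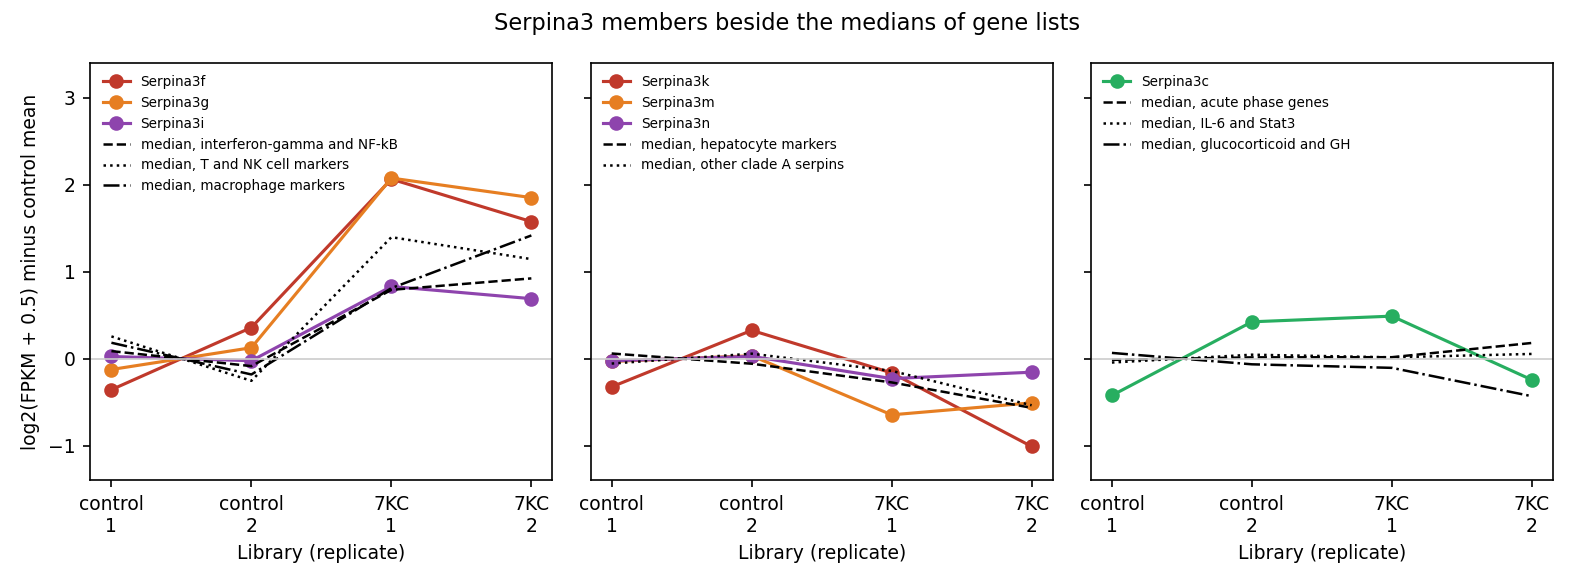
Change of log2(FPKM + 0.5) from the mean of the control libraries (vertical axis) in each of the 4 libraries for the members (colored points), beside the median of the tested genes of related lists (black lines). Serpina3f and Serpina3g lie in both 7KC libraries above the 3 list medians of the left panel, Serpina3k lies in 7KC replicate 2 below those of hepatocyte markers and other clade A serpins, and Serpina3c has a low and a high library in each group.

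Markers of T and NK cells and of macrophages were set beside the members, and no listed marker was at 0 in any library. The 10 tested T and NK cell markers had both 7KC libraries above for 10 of 10, with a median log2 difference of 1.23. The summed level of all 11 listed was 16.4 to 25.1 FPKM in the controls against 51.8 to 60.9 FPKM in the 7KC libraries. Of 12 macrophage and monocyte markers, 9 were above, 1 below and 2 overlapping, with a median of 1.07 and sums of 1298 to 1730 and 3538 to 4735 FPKM. Cd74 and Lyz2 supplied most of these sums. Cd74 was at 909 and 711 FPKM in the controls against 2154 and 2610 FPKM with 7KC, and Lyz2 at 538 and 321 against 995 and 1583 FPKM. The marker below was Vsig4 (log2 difference -0.41), and those overlapping were Adgre1 (0.73) and Clec4f (-0.03). At an equal total 10 of the 12 were above and 0 below. Of 4 tested neutrophil markers, 2 were above and 2 overlapped, and the sums of the 6 listed were 18.6 to 34.1 and 39.8 to 42.9 FPKM. None of these markers passed the threshold. At an equal total 402 of the 12299 genes tested passed as higher. Of the markers, 4 of T and NK cells and 5 of macrophages did so, with list medians of 1.48 and 1.29. With a pseudocount of 1 the counts were 3 and 1. Without a filter, or with the replicate number as a block, none of these markers passed. The T cell receptor gene Cd3e was at 2.37 and 2.12 FPKM in the controls against 6.58 and 5.59 FPKM with 7KC (log2 difference 1.26, adjusted p = 0.0503, limma). The T cell marker Cd4 and the NK cell marker Nkg7 had log2 differences of 1.42 and 1.32 (adjusted p = 0.0512 and 0.0523, limma). The monocyte marker Ly6c2 was at 11.1 and 5.39 FPKM in the controls against 44.2 and 42.2 FPKM with 7KC (log2 difference 2.40, adjusted p = 0.0523, limma). Cd74, of antigen presentation, and the integrin gene Itgam had log2 differences of 1.56 and 1.67 (adjusted p = 0.0529 and 0.0596, limma). The neutrophil markers Csf3r, S100a8 and S100a9 had log2 differences of 1.18, 0.66 and 0.51 (adjusted p = 0.135, 0.436 and 0.257, limma). The part of these cells in the differences of Serpina3f, Serpina3g and Serpina3i was not tested.

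Of 11 hepatocyte markers, 0 were above, 7 below and 4 overlapping, with a median log2 difference of -0.51, close to the -0.59 of Serpina3k and the -0.58 of Serpina3m and lower than the -0.19 of Serpina3n, and 0 passed the threshold. At an equal total 0 were above and 5 below, with a median of -0.30. The markers with the smallest p were Hpd (log2 difference -0.71, adjusted p = 0.207, limma), Cps1 (-0.52, adjusted p = 0.239) and Serpinc1 (-0.41, adjusted p = 0.276), which encode enzymes of tyrosine breakdown and of the urea cycle and antithrombin. The ratio of Serpina3m to albumin (Alb) was 0.00846 and 0.0146 in the controls against 0.00851 and 0.0133 in the 7KC libraries, which overlapped. The part of the hepatocyte genes as a whole in the lower Serpina3m and Serpina3n was not tested. In bulk liver, fewer cells of a type and less RNA per cell cannot be told apart. Endothelial markers overlapped for 6 of 6, and of 7 stellate cell markers 1 was above, 2 were below and 4 overlapped. The endothelial markers Cdh5, Stab2 and Clec4g had log2 differences of 0.17, -0.29 and 0.10 (adjusted p = 0.737, 0.664 and 0.812, limma). The stellate cell markers Col1a1, Reln and Acta2 had log2 differences of 1.28, -0.46 and -0.26 (adjusted p = 0.164, 0.228 and 0.345, limma).

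The genes whose profile over the 4 libraries was most like that of a member were found by the Euclidean distance between log2 profiles, each centred on its own mean, among 12298 genes. This is a description over 4 libraries. For Serpina3g they were Gbp8 (distance 0.089), Tgtp2 (0.145) and Gbp3 (0.169), and for Serpina3f they were Gbp2b (0.275), Fam26f (0.285) and Gm4841 (0.294). The Gbp and Tgtp genes encode GTPases that interferon induces. Gbp8, nearest to Serpina3g, was at 4.62 and 5.47 FPKM in the controls against 21.45 and 18.3 FPKM in the 7KC libraries. For Serpina3f, Serpina3g was at rank 7 of 12298, and for Serpina3g, Serpina3f was at rank 19. Of the windows of Serpina3f, 17.1% matched Serpina3g, and the part of exchanged reads in this likeness was not tested. Serpina3k and Serpina3m were at ranks 12034 and 11980 for Serpina3g, near the far end. For Serpina3k the nearest were C8b (0.09), a complement component gene, Fam160a1 (0.122) and Ces3a (0.155), a carboxylesterase gene. For Serpina3m they were Dact2 (0.082), Acnat1 (0.082) and Mylpf (0.084), and for Serpina3n Rnf126 (0.007), Ddx59 (0.009) and Pi4kb (0.017).

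The starts of the genes were compared because Serpina3f, Serpina3g and the barely detected, untested Serpina3i each had both 7KC libraries above both control libraries. RefSeq promoter sequences (GRCm38.p6, from 250 bases before to 50 bases after the start) matched 5 of the 7 members. Serpina3k and Serpina3m had no entry. The longest run of letters that all 5 shared was CAGAGCACAGCTT, of 13 bases, which 6 of 27025 promoters (0.0222%) held on either strand, namely those of the 5 members and of Olfr374. The run with the 60 bases before it is given for each, since the STAT motif TTCNNNGAA lay within it where it was found. Capitals mark that motif, and sequences are read along each gene's strand. They were at chr12:104214395-104214467 for Serpina3f, chr12:104236095-104236167 for Serpina3g, chr12:104263001-104263073 for Serpina3i, chr12:104153939-104154011 for Serpina3c and chr12:104406566-104406638 for Serpina3n.
Serpina3f: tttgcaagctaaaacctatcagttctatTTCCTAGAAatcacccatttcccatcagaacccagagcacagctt
Serpina3g: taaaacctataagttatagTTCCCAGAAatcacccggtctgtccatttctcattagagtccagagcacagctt
Serpina3i: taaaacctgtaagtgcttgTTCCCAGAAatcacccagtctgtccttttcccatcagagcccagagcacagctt
Serpina3c: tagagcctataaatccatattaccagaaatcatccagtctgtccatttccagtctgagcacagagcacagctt
Serpina3n: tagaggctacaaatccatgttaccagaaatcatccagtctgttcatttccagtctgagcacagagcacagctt

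Both strands were searched for each motif. TTCNNNGAA occurred in Serpina3f, Serpina3g and Serpina3i, at -121, -33 and -102 from the RefSeq start, and not in the windows of Serpina3c and Serpina3n, whereas 8.47% of the 27025 promoters held it. The window of Serpina3g ended at 104236196, before its GENCODE start of 104236245, whereas those of Serpina3f and Serpina3i held their GENCODE starts. Positions in Serpina3g therefore depend on the start chosen. Serpina3g and Serpina3i had the same letters, TTCCCAGAA, and both ended 45 bases before the end of the shared run. At that distance Serpina3c and Serpina3n had TTACCAGAA, which differs from the letters of Serpina3g by C3A, with positions counted from 1 at the first letter of the motif and the base of Serpina3g given first. In Serpina3f the letters were TTCCTAGAA and ended 36 bases before the end of the run. The NF-kB consensus occurred at -85 in Serpina3g and at -154 in Serpina3i, and not in the other 3 windows, with 4.35% of all promoters holding it. The C/EBP motif TTGCNNAA occurred only in Serpina3f among the 5, where 10.8% of all promoters held it. The interferon-stimulated response element, searched as TTTC and TTTC separated by any 2 bases, occurred in 0 of the 5, where 3.49% of all promoters held it. The promoters of these related genes share sequence around the motif, so matches in several members are not independent and cannot be weighed against the shares of all promoters. A match of letters does not show that a factor bound there, and the comparison was made after the values were seen.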

How the data were processed

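Total RNA of liver was extracted, libraries were prepared with a stranded mRNA kit and sequenced as 75-base single-end reads. The authors mapped the reads to mm10 and deposited FPKM per gene symbol. The submitters' processing notes name TopHat2 2.1.1, Bowtie2 2.2.8, SAMtools 0.1.18 and Cuffdiff 2.2.1, and the study's methods name Cufflinks. The annotation, the use of strand and the treatment of multi-mapped reads are not given in the sources used here. FPKM were not counts, so log2(FPKM + 0.5) was compared with limma 3.58.1 in R 4.3.3 (eBayes with trend, group as the only term, residual degrees of freedom 2, prior 3.27) over the 12299 genes whose mean reached 0.5 FPKM. This scale understates the change of low genes. An adjusted p (Benjamini-Hochberg) under 0.05 was the threshold, and 2192 genes had an unadjusted p under 0.05. A permutation test of 2 libraries against 2 cannot go below an exact two-sided p of 0.333.

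Transcript lengths were first corrected for an assumed fragment length of 200 bases. Depth was then estimated as the number of mapped reads that made most low values of genes with a single transcript whole numbers of reads. At the estimate 71.6% to 73.1% of these values were within 0.1 of a whole read, against a median of 13.8% to 14.3% over the other depths tried. Reads behind each value were derived from it and were used only to describe precision.

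Coding sequences were aligned with mafft 7.526. The fit was tested on simulated data with independent libraries and with the spreads shuffled over the genes. Such data cannot check the calls made here. The members, gene lists and alternatives were chosen with earlier results of these data known. Genes named were all members, the other Serpina3 genes, the tested clade A serpins, from each other list those past the threshold or the 3 with the smallest p, and the 3 most alike in profile to each tested member. Other genes in the text were named after their values were seen. The values of 1 gene that this rule names are not reported here.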

Additional observations from a re-analysis of the deposited data

How the results depend on the processing

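The log2 differences of Serpina3f (1.46 to 2.18), Serpina3g (1.84 to 2.18), Serpina3i (0.49 to 1.40), Serpina3k (-1.01 to -0.16) and Serpina3m (-0.65 to -0.37) kept their sign under all alternatives run. For Serpina3f, Serpina3g, Serpina3i and Serpina3m, whose groups did not overlap, a changed pseudocount or a library left out could not have reversed the sign. The filter and the replicate block left each difference as it was, so only the rescaling could have reversed these signs. With each library rescaled to the same sum, Serpina3g was at 2.18, Serpina3i at 1.07, Serpina3m at -0.37 and Serpina3n at 0.013, its sign reversed, and 1 member was below. Serpina3i was at 1.40 with a pseudocount of 0.1 and at 0.49 with 1. Serpina3c ranged from -0.30 to 0.55 with 1 library left out and reversed to -0.30 without control replicate 1 and to -0.24 without 7KC replicate 1.

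Of all genes tested, 59 were higher and 3 lower. The counts were 111 higher with a pseudocount of 1, 0 and 1 without a filter (2634 genes at an unadjusted p under 0.05), 402 and 7 after rescaling to the same sum, 39 and 1 without a trend, and 2 to 389 higher and 1 to 52 lower with 1 library left out, the highest without control replicate 1. The related lists, with 3 genes higher and 0 lower, gave 7 higher with a pseudocount of 1, 0 without a filter, 23 after rescaling and 0 to 23 with 1 library left out. The members past the threshold as higher were 0 without a filter, 2 after rescaling and 0 to 2 with 1 library left out. The lone library of such a group is assumed to vary like the others. The causes were not tested.

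With the replicate number as a block, 0 genes were higher and 0 lower (1851 at an unadjusted p under 0.05), and 0 of the lists and 0 members passed. Deviations of same-numbered libraries correlated at -0.141 over 12299 genes, so the numbers give no sign of pairing. Crossed numbers, tried after seeing the data as was Serpina3h in the sum, gave 551 higher and 37 lower, 23 and 1 in the lists and 2 members. Depth limits Serpina3c and Serpina3i.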
